A study of Homo sapiens with 10 samples.

Results

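The m6A regions described here were called in A549/DDP cells and not in A549 cells. A549 is a human lung adenocarcinoma cell line. The A549/DDP line was derived from it and resists cisplatin, so the lines differ by derivation and by drug resistance together. Per the labels, each line gave 2 m6A-seq libraries and 2 input libraries of poly(A) RNA, and A549 also gave a second pair of inputs. That pair is shallower, with 75.2% and 73.9% of counts on mitochondrial genes, and entered only as an alternative. Neither line was under a drug treatment named in the labels. Whether the resistant line is 1 clone is not given in the sources used here, and no label ties replicates to separate cultures, so p-values measure the spread between these libraries. The peaks of the 4 deposited lists were joined into 1 region when an exon block of one overlapped that of another by 1 base or more on 1 strand. This gave 37903 merged regions, of which 1173, or 3.09%, held a peak of both A549/DDP lists and of neither A549 list. The peak calls chose these regions, so their presence in one line and absence in the other is a description and was not tested.

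N6-methyladenosine is written on messenger RNA by a nuclear methyltransferase complex built around METTL3 and METTL14, and it is erased by the demethylases FTO and ALKBH5. Reader proteins of the YTH family bind it and act on translation, decay and splicing of the marked transcript. In m6A-seq, RNA fragments are pulled down with an antibody against the modification and sequenced beside the input RNA, and peaks are called where the pull-down exceeds the input. The mark lies mostly in long internal exons and around stop codons, often within the core motif GGAC.

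Some of these regions overlapped a window around a RefSeq transcription start, and for the overlapping bases the sequence could be read from RefSeq. Of the 1173 regions, 43 had at least 20 bases inside a RefSeq promoter window of their own gene, and 15 of these 43 held GGAC on the strand of the RNA in those bases. For scale, GGAC lay in the last 50 bases of 18.9% of 35116 RefSeq promoter windows, which are shorter stretches than some of the 43, so the shares are not over equal lengths. The stretches below are from RefSeq GRCh38.p14 and are those of 21 bases around GGAC, in capitals, in genes without an A549 peak. They were picked for holding GGAC, so its presence in them is no finding. Of those shown, only the CAST and PAIP2 stretches have T as the next base. A match of 4 letters is not a mapped site.
CAST, chr5:96662343-96662363, plus strand: ccctggcaGGACtccccgcca
CAST, chr5:96743601-96743621, plus strand: tgagtctgGGACtgccctggc
PAIP2, chr5:139342461-139342481, plus strand: gggcggagGGACtggcgggct
COX17, chr3:119677370-119677390, minus strand: gtgactgcGGACgaatcggcg
APLP2, chr11:130070573-130070593, plus strand: tgccaggtGGACgcggccccg
PSMD10, chrX:108091518-108091538, minus strand: agttgctgGGACagcgaaatg
MAGED1, chrX:51893641-51893661, plus strand: tttctcctGGACaaggagaga

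The peak lists differed in length, and this bears on every count of regions. A549 replicates 1 and 2 held 26320 and 14576 peaks in 7578 and 5276 genes, and A549/DDP replicates 1 and 2 held 27244 and 10661 peaks in 7001 and 3818 genes. The lists give no read depth, so the depth of the m6A-seq libraries is unknown. The 1173 regions used 1267 peaks of A549/DDP replicate 1, which is 4.65% of that list, and 1272 peaks of replicate 2, which is 11.9%. A region called in both A549/DDP lists was also called in A549 replicate 1 alone in 1071 cases and in A549 replicate 2 alone in 307 cases, while 3304 regions were called in all 4 lists and 2318 in both A549 lists only. The input libraries held 35286514 and 34570074 expected counts in A549 and 29225501 and 33971561 in A549/DDP. Epithelial markers summed to between 8621 and 16047 TPM per library, with 5 of 6 at a TPM of at least 1 in all 4 libraries and KRT19 at 0 in A549/DDP replicate 2. The 9 markers of blood, endothelium and fibroblasts summed to between 2.92 and 20.01 TPM, CD3E was at 0 throughout, and only COL1A1 reached a TPM of 1 in every library.

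The count of 1173 regions moved with the lists used. Without A549 replicate 1 it was 2328, without A549/DDP replicate 1 it was 2767, and without A549/DDP replicate 2 it was 11478. With only peaks at a deposited p-value at or below 1e-05 it was 742, and with each list limited to its best 10661 peaks it was 776. The deposited p-values of the regions reached 0.03 in A549/DDP replicate 1 and 0.016 in replicate 2, with medians of 4.2e-06 and 2.2e-05. In both lists 358 regions were at or below 1e-05, and 83 had a p-value of at least 0.01 in a list. Just outside the rule, the 1071 regions also called in A549 replicate 1 had a median p-value of 9.3e-06 in that library, with 47 at 0.01 or above, and the 307 also called in A549 replicate 2 had a median of 4.8e-05, with 12 at 0.01 or above.

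The 1173 regions lay in 787 genes, which fell into 3 kinds by what else was called in them. In 332 genes no peak was called in either A549 list, and these newly marked genes held 627 regions, or 53.5% of all. A further 174 genes, with 217 regions, had a peak elsewhere in 1 A549 list, which was replicate 1 for 124 genes and replicate 2 for 50. The other 281 genes, with 329 regions, had a peak elsewhere in both A549 lists. In these already marked genes the A549/DDP-only region was often close to an A549 peak, with a median gap of 847 bases, 75 regions within 200 bases and 174 within 1000. All A549 peaks of the gene lay on the 5′ side of the region in 122 cases and on its 3′ side in 68, and in 139 cases they lay on both sides or spanned it. These 281 genes had a median of 3 and 2 peaks in the A549 lists and of 5 and 4 peaks in the A549/DDP lists. Each was selected for a region called in both A549/DDP lists and in neither A549 list. The rule thus favours more A549/DDP peaks, and this difference says nothing about marked genes in general.

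Most newly marked genes carried few regions. Of the 332 genes, 156 had 1 region, 88 had 2 and 88 had 3 or more, and the median number of peaks per gene was 3 in A549/DDP replicate 1 and 2 in replicate 2. Regions of 1 gene are not independent calls: in 42.1% and 42.2% of the genes with several peaks in A549/DDP replicates 1 and 2, all peaks shared 1 deposited p-value. At 10 of the 332 genes, among them FKBP1A, CCDC47, SMARCE1 and TMX2, an A549 peak assigned to another gene name lay within the span of the A549/DDP peaks, and without them 322 genes remained, a check added after the data were seen. With peaks at or below 1e-05 the count was 308 genes, of which 126 were among the 332, and with lists of equal length it was 319, of which 151 were among them. Without A549 replicate 1 the count was 815 genes, without A549/DDP replicate 1 it was 545 and without A549/DDP replicate 2 it was 1474.

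The genes with the most regions were newly marked. CAST encodes calpastatin, the endogenous inhibitor of the calpain proteases. It had 7 regions, from chr5:96662293-96675667, where the first sequence shown above lies, to chr5:96774294-96774644, which ended 39 bases before the RefSeq gene end. CAST had 12 and 10 peaks in A549/DDP replicates 1 and 2, not all of them in these regions. The p-values of the CAST regions in these lists were between 2.9e-07 and 8.9e-06. SMC4, a core subunit of the condensin complexes, also had 7 regions, the first of which began 72 bases from the gene start (chr3:160399722-160399871, plus strand). SEC23IP, which binds the COPII coat at the exit sites of the endoplasmic reticulum, had 7 regions between chr10:119892811-119898755 and chr10:119941770-119942119, and each A549/DDP list held 7 peaks. In SMC4 and SEC23IP the called peaks were spread over the gene. In A549/DDP replicates 1 and 2 the peaks came to 149% and 80.1% of the estimated transcript length for SMC4. The shares were 170% and 129% for SEC23IP and 109% and 73.0% for CAST. Medians were 54.6% and 30.4% over newly marked genes, and 56% and 34.8% over genes with a peak in all 4 lists. The 7 regions of a gene were thus not shown to be separate sites. In CAST all 7 regions lay at most 99016 bases before the end of a RefSeq span that starts 700864 bases before the first region. However, chr5:96662293-96675667 and chr5:96742705-96743638 had 133 and 99 bases in RefSeq promoter windows of CAST. The place in the CAST span is therefore not a place in a transcript.

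CALD1, SRSF11 and TJP1 had 6 regions each and CD44 and SRRM1 had 5. CALD1 encodes caldesmon, an actin-binding protein, and the most 3′ of its regions (chr7:134969829-134970328, plus strand) had p-values of 1.0e-06 and 2.4e-07. TJP1 encodes ZO-1, the scaffold of tight junctions, and its regions included chr15:29708615-29716767 on the minus strand, with 749 bases in 3 exon blocks. CD44, the hyaluronan receptor, had 1 region that began 47 bases from the gene start (chr11:35139218-35176767) and 4 near its end, between chr11:35229166-35229664 and chr11:35231755-35232103. SRSF11 and SRRM1 both encode serine- and arginine-rich proteins of the splicing machinery.

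The regions of lowest p-value fell in genes of all 3 kinds. FBL, which encodes fibrillarin, the 2′-O-methyltransferase of ribosomal RNA, had a region of 100 bases in 2 exon blocks (chr19:39839111-39840237, minus strand) listed at a p-value of 0 in both A549/DDP lists. It lay 226 bases from the nearest A549 peak, and the A549 peaks of FBL were in replicate 2 only. FKBP1A, the target of FK506, had 2 regions at 1.0e-13 and 0, and an A549 peak under another gene name lay among its A549/DDP peaks. EEF1G, a subunit of translation elongation factor 1, had a region (chr11:62559650-62559798) that 2 gene identifiers share, 565 bases from an A549 peak. RAB9A and CD99L2 had peaks elsewhere in both A549 lists, whereas PPP1R11, PNISR and PRR15L were newly marked. PPP1R11, an inhibitor of protein phosphatase 1, had 3 regions in a row up to 50 bases from the gene end (chr6:30070035-30070283), with p-values of 8.1e-09 and 6.3e-11 in each.

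The regions were short, and about as many held several exon blocks as held 1. Their median length was 298 bases in exon blocks, with quartiles of 200 and 444, compared with 347 bases for the 2318 regions called only in A549 and 747 for the 3304 called in all 4 lists. A single exon block made up 49.9% of them (95% Wilson interval 47.0 to 52.7), compared with 70.6% (68.7 to 72.4) of A549-only regions and 43.8% (42.1 to 45.5) of regions in all 4 lists. At least 3 exon blocks were found in 23.9% (21.5 to 26.4), 8.41% (7.35 to 9.61) and 28.9% (27.4 to 30.5), respectively. In number of exon blocks the A549/DDP-only regions were thus nearer to the regions of all lists than to the A549-only regions. These intervals cover counting error only and treat regions of 1 gene as separate, and no test was run. Where a RefSeq gene span was matched, 11.2% of the 1132 A549/DDP-only regions lay within 200 bases of the gene end, compared with 7.98% of A549-only regions and 20.6% of regions in all 4 lists.

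Zinc finger and long non-coding RNA genes held a smaller share of the A549/DDP-only than of the A549-only regions. Numbered zinc finger genes, the large family of ZNF transcription factors, held 3 of the 1173 regions, or 0.256% (0.087 to 0.749), in ZNF275, ZNF526 and ZNF638, compared with 183 of the 2318 A549-only regions, or 7.89% (6.87 to 9.06), and 2.33% of regions in all 4 lists. None of the 383 zinc finger genes tested in the input was newly marked, beside 315 of all 16406 genes tested. A peak in any list was held by 257 zinc finger genes. In the input 29 of the 383 were lower and 7 higher, against 8.0% and 6.85% of all genes, with a median log2 fold change of −0.5. Long non-coding RNA genes held 1.5% of the A549/DDP-only and 5.55% of the A549-only regions. By chromosome, A549/DDP-only regions made up between 1.56% of all merged regions, on chromosome 19, and 5.97%, on chromosome 13. A549-only regions made up 8.27% on chromosome 19, the home of many ZNF clusters, and 6.82% on chromosome 13.

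Most newly marked genes had some RNA counted in the A549 inputs. Of the 332 newly marked genes, 292, or 88%, had a TPM of at least 1 in both A549 inputs, 14 in 1 of them and 26 in neither. The share of all genes at this level was not counted. Why no A549 peak was called in these genes was not tested. In the A549 inputs 126 newly marked genes had a mean of at least 100 CPM (counts scaled to library size, TMM-normalized) and 7 of at least 1000, namely TJP1, NCL, HNRNPA2B1, MAP1B, COL4A2, TPM4 and ANTXR1, a level chosen after the values were seen. HNRNPA2B1, an RNA-binding splicing regulator proposed as a nuclear m6A reader, had 1618 and 1893 CPM in A549 and 1776 and 1945 CPM in A549/DDP. Its levels overlapped between the lines, and its 2 regions lay at the gene start (chr7:26200630-26200780) and 1698 bases before the gene end (chr7:26191625-26192024). Their p-values were up to 0.026, near the largest in the lists.

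In the input comparison, the quasi-likelihood test of edgeR, adjusted by Benjamini-Hochberg, called 6.85% of 16406 genes higher and 8.0% lower in A549/DDP at an adjusted p under 0.05. Of the 764 tested genes with an A549/DDP-only region, 108 were higher (14.1%) and 127 lower (16.6%). Of the 315 tested newly marked genes, 46 were higher (14.6%) and 53 lower (16.8%), with a median log2 fold change of −0.06 and quartiles of −0.71 and 0.58. The median over all 16406 genes was −0.002. Among the 9352 tested genes with a peak in any list, 9.25% were higher and 11.0% lower. Genes with a region are better expressed than most, and among the 7725 genes with a mean of at least 20 CPM, a floor chosen after the data were seen, the background was 11.7% higher and 14.9% lower. Above that floor 34 of 246 newly marked genes were higher (13.8%) and 51 lower (20.7%). The calls thus went in both directions. Of the 315 newly marked genes 39.0% had a log2 fold change within 0.5 of 0, beside 35.1% of all genes and 44.2% of those with a mean of at least 20 CPM. Peaks are called against the input, so the calls and the input RNA are not separate measurements.

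The number of newly marked genes called lower depended on single libraries. It was 27 of 321 (8.41%) without A549/DDP replicate 1, 30 of 323 (9.29%) without A549/DDP replicate 2 and 89 of 321 (27.7%) without A549 replicate 2, against 53 with all 4 inputs. Of all genes in the same fits, 6.88%, 6.21% and 11.3% were lower. The median fold change was between −0.115 and −0.0079 when 1 library was left out. The number of all genes with a region called lower was 63, 74 and 215 in the same fits, against 127.

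The 3 kinds of genes with an A549/DDP-only region had like counts of calls in the input. Of the genes with a region and a peak elsewhere in 1 A549 list, 28 of 171 were higher and 27 lower, and of those with peaks in both A549 lists, 34 of 278 were higher and 47 lower, with median log2 fold changes of 0.01 and −0.09. For the 804 genes with an A549-only region and no A549/DDP peak, 755 were tested, 21 were higher (2.78%) and 161 lower (21.3%), with a median log2 fold change of −0.83. Their median level was 21.5 CPM in A549 and 11.1 CPM in A549/DDP, whereas newly marked genes had medians of 71.7 and 67.6 CPM. By these counts, genes without any A549/DDP peak leaned to lower RNA in A549/DDP, and newly marked genes did not lean to higher RNA. This difference was not tested, since the peak calls that define both kinds use the same inputs.

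Several newly marked genes were hardly expressed in A549. In 13 genes the TPM was under 1 in both A549 inputs and at least 1 in both A549/DDP inputs. SPDEF, an ETS transcription factor of secretory epithelium, had 0 counts in both A549 inputs and 34.5 and 37.8 CPM in A549/DDP, at least 411-fold higher than a floor of 3 counts per library (edgeR adjusted p = 0.0024). LINC02418, a long non-coding RNA with 4 regions on the minus strand of chromosome 12, was also at 0 counts in A549 and had 16.4 and 12.3 CPM in A549/DDP, at least 163-fold higher than the same floor (edgeR adjusted p = 0.0066). For such genes the absence of an A549 peak goes with an absence of RNA in the inputs.

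PCDH17, a protocadherin of the cadherin family, had 5 regions. Its input level was 0.395 and 0 CPM in A549 and 61.3 and 57.6 CPM in A549/DDP (edgeR adjusted p = 0.0062). CST1, a secreted cystatin that inhibits cysteine proteases, had 1 region over 3 exon blocks (chr20:23747601-23750855, minus strand). Its level was 0.304 and 0.282 CPM in A549 and 61.4 and 42.3 CPM in A549/DDP, a log2 fold change of 7.45 ± 0.44 (SE, edgeR adjusted p = 0.0016). PRR15L, with 1 region at 3.2e-11 and 1.2e-08, had 0 and 0.0282 CPM in A549 and 7.59 and 3.01 CPM in A549/DDP (edgeR adjusted p = 0.032). All 5 genes rose without overlap between the lines. Without A549/DDP replicate 1, however, PRR15L was no longer called, at a log2 fold change of 7.37. SPDEF, LINC02418, PCDH17 and CST1 were picked as the largest rises that passed the test, so their lack of overlap goes with the choice. Among newly marked genes, 108 were higher and 127 lower in A549/DDP without overlap, while the test called 46 higher and 53 lower. The share of all genes without overlap was not counted, so the 108 and 127 are not a trait of newly marked genes.

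Other newly marked genes had much RNA in A549 and less in A549/DDP. AXL, a receptor tyrosine kinase linked to mesenchymal state and drug resistance, had 1152 and 748.9 CPM in A549 and 80.1 and 75.9 CPM in A549/DDP. It was 12.2-fold lower, with a log2 fold change of −3.61 ± 0.25 (SE, edgeR adjusted p = 0.0023). No A549 list held an AXL peak, and its 1 region (chr19:41257613-41259933, plus strand, 398 bases in 2 exon blocks) had p-values of 0.016 and 0.00093. ANTXR1, a collagen-binding receptor of the cell surface, had 1206 and 1041 CPM in A549 and 178.8 and 183.5 CPM in A549/DDP, a log2 fold change of −2.63 ± 0.16 (SE, edgeR adjusted p = 0.0016). Its 3 regions lay between 1647 and 3194 bases before the gene end. EPB41L2, a protein of the membrane skeleton with 4 regions, had 687.8 and 410.1 CPM in A549 and 76.0 and 86.1 CPM in A549/DDP (edgeR adjusted p = 0.0043). Each of these 3 genes was lower in both A549/DDP libraries than in both A549 libraries. They were picked among the largest falls that passed the test, so this goes with the choice.

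MATR3, which encodes the nuclear RNA-binding protein matrin 3, is listed under 2 gene identifiers, both of them newly marked, and reads may have been split between them. Under ENSG00000280987.3 it had 112.0 and 162.6 CPM in A549 and 29.3 and 26.9 CPM in A549/DDP (edgeR adjusted p = 0.0051). Its 3 regions (chr5:139293984-139307515, chr5:139307593-139307942 and chr5:139329514-139330411) carry both identifiers. The level under the other identifier is not given here, so the fall is that of ENSG00000280987.3 and is not shown for MATR3 as a whole.

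Among the 8 genes with most regions, 4 passed the test and all 4 were lower. Of all genes with a mean of at least 20 CPM, 11.7% were higher and 14.9% lower. So few genes, picked by rank, do not show a trait of genes with many regions. TJP1 had 1135 and 893.9 CPM in A549 and 286.1 and 311.2 CPM in A549/DDP, a log2 fold change of −1.76 ± 0.18 (SE, edgeR adjusted p = 0.0044). SRSF11 had 465.5 and 310.9 CPM in A549 and 119.3 and 175.1 CPM in A549/DDP (log2 fold change −1.40, edgeR adjusted p = 0.025). CALD1 had 491.9 and 401.3 CPM in A549 and 169.5 and 202.2 CPM in A549/DDP (log2 fold change −1.27, edgeR adjusted p = 0.011). SMC4 fell less, from 346.5 and 318.0 CPM to 188.9 and 217.5 CPM (log2 fold change −0.71, edgeR adjusted p = 0.039). None of these 4 overlapped between the lines. Without A549/DDP replicate 1 the calls of SRSF11, CALD1 and SMC4 were lost, at adjusted p-values of 0.071, 0.052 and 0.23, and SMC4 was also lost without A549/DDP replicate 2, at 0.14. With the second, shallower pair of A549 inputs the log2 fold changes of SRSF11, CALD1 and SMC4 were −0.8, −0.38 and −0.038, at adjusted p-values of 0.0599, 0.272 and 0.918. CAST, SEC23IP, CD44 and SRRM1 did not pass. DESeq2 called CD44 and SRRM1 lower, at adjusted p-values of 0.0117 and 0.0141. CD44 had 393.6 and 347.5 CPM in A549 and 248.1 and 263.0 CPM in A549/DDP (edgeR adjusted p = 0.073), and SEC23IP had 136.1 and 123.1 CPM beside 142.2 and 124.6 CPM (edgeR adjusted p = 0.91).

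Among newly marked genes with a mean of at least 20 CPM, those with the smallest change in RNA were CD164, SMARCB1, SERPINB6, H3-3A and AAAS. CD164, a sialomucin, had 84.5 and 61.2 CPM in A549 and 72.0 and 73.6 CPM in A549/DDP, and 3 regions within 2097 bases of its gene end, with p-values of 1.1e-07 and 6.8e-07. SMARCB1, a core subunit of the SWI/SNF chromatin remodelling complex, had 63.9 and 63.2 CPM in A549 and 74.9 and 53.3 CPM in A549/DDP, and 1 region of 150 bases. AAAS, a nuclear pore protein, had 90.1 and 72.0 CPM beside 85.2 and 81.4 CPM, and 2 regions. SERPINB6, an intracellular protease inhibitor, and H3-3A, which encodes the histone variant H3.3 and has close gene copies, likewise overlapped between the lines. In these 5 genes peaks were called in A549/DDP only, at RNA levels that overlapped. They were picked for the smallest change, so the overlap goes with the choice. The sign of each of these changes turned under at least 1 other processing setting. With the second, shallower pair of A549 inputs, edgeR called H3-3A lower (log2 fold change −2.01, adjusted p = 3.37e-05) and SMARCB1 higher (2.36, adjusted p = 0.0175).

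**Figure D1:**
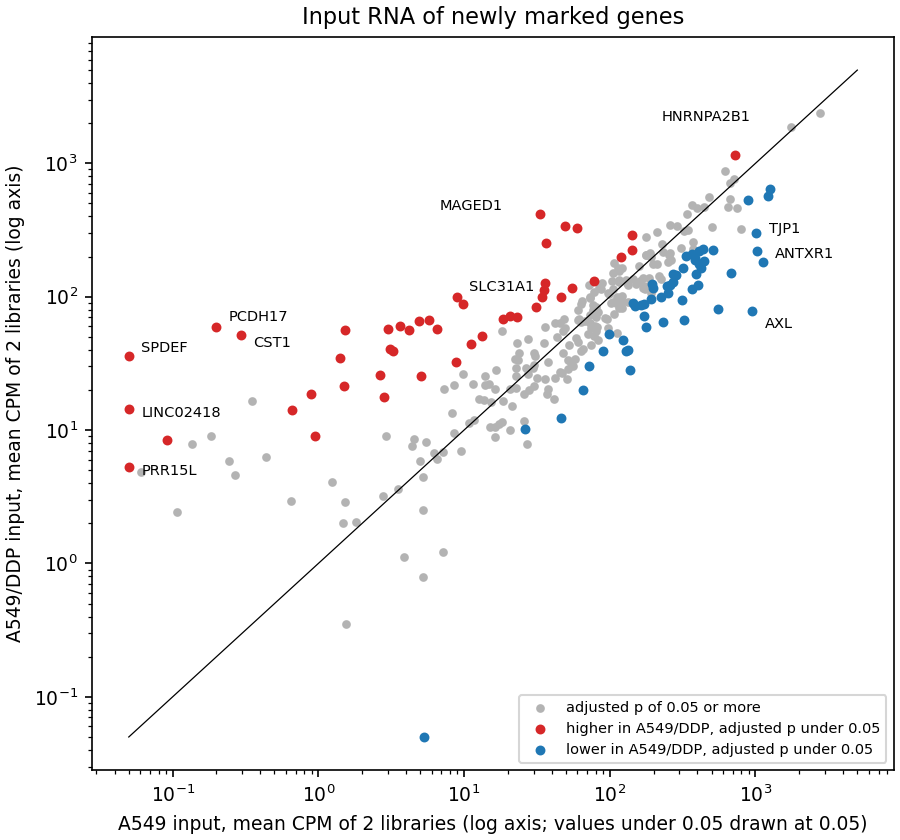
Mean input level of the 315 tested newly marked genes, A549 (x axis) against A549/DDP (y axis), in CPM over 2 libraries per line on log axes; values under 0.05 CPM are drawn at 0.05 and the line marks equal levels. Red genes (46) were higher and blue genes (53) lower in A549/DDP at an edgeR adjusted p under 0.05, with SPDEF and LINC02418 at the left edge and AXL farthest below the line among abundant genes.

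In 15 newly marked genes the TPM was under 1 in both A549/DDP inputs, although A549/DDP peaks were assigned to them, and 5 of these had 0 counts in all 4 inputs. CHMP1B-AS1, an antisense transcript with 1 region, had 6.81 and 3.78 CPM in A549 and 0 in both A549/DDP inputs (edgeR adjusted p = 0.026). For these genes the gene a peak was assigned to had little or no counted RNA, and the cause was not tested. In 8 newly marked genes only 1 A549/DDP list held a peak under the gene's own name, the other peak of the region being assigned to an overlapping gene.

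Lists of pathways tied to platinum response and to m6A were set beside the share of all genes. Of the 9899 genes with a peak in any list, 787, or 7.95%, held an A549/DDP-only region. The NRF2 list of 22 genes holds antioxidant genes controlled by the KEAP1 and NRF2 pair and also the pair itself, KEAP1 and NFE2L2. Of these 22 genes, 17 had a peak in any list and 3 held an A549/DDP-only region (NFE2L2, SLC7A11 and TALDO1), none of them newly marked. In the input 14 of 22 rose, KEAP1 among them, and 2 fell, NFE2L2 among them, against 6.85% and 8.0% of all genes tested. NFE2L2, which encodes NRF2 itself, had 235.1 and 205.6 CPM in A549 and 95.4 and 105.9 CPM in A549/DDP (log2 fold change −1.13, edgeR adjusted p = 0.012). Its 1 region (chr2:177233988-177263517, minus strand) lay 2098 bases from the nearest A549 peak, and the 3 A549 peaks of NFE2L2 were in replicate 2 only. Without A549/DDP replicate 1 its adjusted p was 0.068. KEAP1, the adaptor that directs NRF2 to degradation, held none of the regions, with 6 and 5 peaks in A549 and 3 and 0 in A549/DDP. Its level was 41.9 and 54.5 CPM in A549 and 128.9 and 115.5 CPM in A549/DDP (log2 fold change 1.34, edgeR adjusted p = 0.014). YTHDF1, a cytoplasmic m6A reader, held none either, with 106.7 and 83.0 CPM in A549 and 88.2 and 94.1 CPM in A549/DDP.

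Of 21 genes of the m6A machinery, HNRNPA2B1, HNRNPC and ZC3H13 held a region, of 18 with a peak, and 7 of the 21 were lower in the edgeR test, against 8.0% of all genes. ZC3H13, a subunit of the writer complex, had 10 and 7 peaks in A549 as well, and its region lay 198 bases from the nearest A549 peak. HNRNPC, which binds RNA opened up by m6A, had 1180 and 783.3 CPM in A549 and 557.5 and 486.7 CPM in A549/DDP (edgeR adjusted p = 0.048), a call lost without either A549/DDP library, at 0.093 and 0.16. Of 15 platinum transport genes, 6 had a peak and SLC31A1 alone held a region. SLC31A1 encodes the copper transporter CTR1, through which cisplatin can enter cells. It was newly marked, with 1 region 448 bases before the gene end (chr9:113263248-113264044, plus strand, p-values of 0.0049 and 0.0011). Its level was 44.9 and 47.3 CPM in A549 and 101.0 and 97.3 CPM in A549/DDP, a log2 fold change of 1.11 ± 0.18 (SE, edgeR adjusted p = 0.016), and without A549/DDP replicate 1 the adjusted p was 0.064.

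The remaining lists held 1 to 4 genes with a region each. Of 26 crosslink repair genes with a peak BRCA1 and FANCL held one, of 22 such apoptosis genes MCL1 and TNFRSF10B, of 16 Hippo-YAP genes AMOTL2 and CCN1, and of 31 chromatin regulators CREBBP, KMT2B, KMT2D and SETD1B, and none of these 10 genes was newly marked. Of 19 genes with a peak of receptor tyrosine kinases and RAS-ERK, AXL and EGFR held one, and of 15 of epithelial and mesenchymal state, TJP1. EGFR, the receptor of epidermal growth factor, had 2 regions, 2 A549 peaks in replicate 1 and none in replicate 2. It had 1733 and 1307 CPM in A549 and 250.0 and 267.2 CPM in A549/DDP (log2 fold change −2.56, edgeR adjusted p = 0.0024). Among all genes of these lists the input calls were mostly lower, with 8 of 18 Hippo-YAP genes and 11 of 37 chromatin regulators lower, 9 of 27 tested receptor kinase genes lower and 4 higher, 8 of 26 tested apoptosis genes lower and 1 higher, 8 of 24 tested epithelial and mesenchymal genes lower and 1 higher, 3 of 34 repair genes lower and 1 higher, and 1 of 14 tested platinum transport genes lower and 3 higher, against 8.0% and 6.85% of all genes.

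Several housekeeping families held more genes with an A549/DDP-only region than with an A549-only region. These families were chosen after the gene names were seen, so no test was run. Of all genes tested in the input, 4.66% held an A549/DDP-only and 8.23% an A549-only region. Of genes with a peak in any list, the shares were 7.95% and 14.3%. Such a peak was held by 34 splicing regulators and by 73 mitochondrial and 78 cytosolic ribosomal protein genes. It was also held by 80 respiratory chain and ATP synthase genes and 34 proteasome genes. Of 44 tested genes of SRSF and HNRNP splicing regulators, 11 held an A549/DDP-only region and 0 an A549-only region, and HNRNPA2B1, SRSF1, SRSF6, SRSF7 and SRSF11 were newly marked. SRSF6 had 145.2 and 139.7 CPM in A549 and 209.7 and 241.8 CPM in A549/DDP (edgeR adjusted p = 0.048), opposite in direction to SRSF11. SRSF1 had 429.8 and 259.6 CPM in A549 and 314.4 and 320.4 CPM in A549/DDP and did not pass (edgeR adjusted p = 0.82). Splicing regulators thus gained called regions with RNA that was higher, lower or overlapping.

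Of 78 tested mitochondrial ribosomal proteins, 16 held an A549/DDP-only region and 0 an A549-only region, and MRPL18, MRPL30, MRPS15 and MRPS35 were newly marked. Of 113 tested cytosolic ribosomal proteins the numbers were 15 and 6, and RPL10, RPL15, RPL5, RPL6, RPS27 and RPS3A were newly marked. Ribosomal protein genes have many near-identical copies in the genome, so their counts and peaks are uncertain. Of 99 respiratory chain and ATP synthase genes 10 held an A549/DDP-only and 4 an A549-only region, and COX17, a copper chaperone of cytochrome c oxidase whose sequence is shown above, had 2 regions and 35.2 and 25.3 CPM in A549 beside 22.6 and 20.2 CPM in A549/DDP. Of 46 proteasome genes the numbers were 7 and 1, and PSMD10 had 3 regions. PSMD10 had 45.4 and 48.8 CPM in A549 and 25.6 and 27.6 CPM in A549/DDP (edgeR adjusted p = 0.069).

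Of the genes whose sequences are shown above, MAGED1 was the 1 that passed the test. MAGED1, an adaptor protein of the MAGE family, had 3 regions and 26.8 and 39.6 CPM in A549 beside 463.1 and 375.4 CPM in A549/DDP, a log2 fold change of 3.66 ± 0.26 (SE, edgeR adjusted p = 0.0023). PAIP2, an inhibitor of poly(A)-binding protein, had 2 regions and 110.1 and 85.3 CPM in A549 beside 55.6 and 60.0 CPM in A549/DDP (edgeR adjusted p = 0.063). APLP2, a relative of the amyloid precursor protein, had 3 regions and 493.0 and 463.0 CPM in A549 beside 586.5 and 532.5 CPM in A549/DDP, which did not overlap but did not pass the test (edgeR adjusted p = 0.37). COX17 and CAST did not pass either (edgeR adjusted p = 0.33 for both).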

How the data were processed

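Peaks were called by the authors in each m6A-seq library. The deposited lists give each peak its gene, strand, exon blocks and p-value. The peak caller, and whether the p-value is raw or adjusted, are not given in the sources used here. Input tables deposited by the authors hold TPM and expected counts per gene, the latter estimated and not normalized. The submitters' processing notes name STAR, RSEM, bedtools and hg38. Conditions and replicate numbers came from the labels. For A549 m6A-seq these numbers are exchanged relative to the file names, which does not affect the regions. Of 58037 gene identifiers, 56993 had a symbol.

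After rounding, expected counts went into edgeR 4.0.16 (R 4.3.3) with filterByExpr, TMM scaling and glmQLFTest, without a block, over 16406 genes. SE is approximate, the fold change over the square root of F. Gene spans and sequences were RefSeq GRCh38.p14, matched by symbol and chromosome. Merging and the edgeR test were tested on simulated data. Regions, gene lists, families and named genes were chosen with earlier results of these data known. Named genes were those with most regions, the regions of lowest p-value, the largest rises and falls (mean of at least 5 CPM) and smallest changes (at least 20 CPM) among newly marked genes, and list genes with a region. A second pair of A549 inputs entered only as an alternative. Location in coding sequence or untranslated regions was not analysed here.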

Additional observations from a re-analysis of the deposited data

How the results depend on the processing

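Merging by 50% of the shorter peak, without strand, or without regions within 200 bases of an A549 peak gave 1148, 1149 and 1063 regions and 321, 345 and 331 newly marked genes, all within 1.5 times of 1173 and 332. Peaks at or below 1e-05 gave 742 regions and lists of equal length 776. Leaving out 1 list gave 1495 to 11478 regions and 467 to 1474 newly marked genes. These counts rise by construction, since fewer lists constrain them.

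With 1 input left out, 83 to 152 genes with a region were higher and 63 to 215 lower, with medians of −0.098 to −0.016, and 38 to 64 newly marked genes were higher and 27 to 89 lower, with medians of −0.115 to −0.0079. A lone library was then assumed to vary like the other line. The second pair of A549 inputs, of 855034 and 982036 counts, with 75.2% and 73.9% on mitochondrial genes against at most 0.0547% in the other inputs, moved the median of all genes to 0.796. It gave 191 higher genes with a region, a median of 0.269 for them and 89 lower newly marked genes. Both pairs gave 54 higher and 20 lower genes with a region, 29 higher and 11 lower newly marked genes and a median of −0.263 for the latter. Upper-quartile scaling moved the median of genes with a region to 0.0008. The causes were not tested. DESeq2 1.42.0 called 62 newly marked genes higher and 72 lower. A fit with a replicate block, whose pairing rests on the numbers in the labels alone (deviations of same-numbered inputs correlated at 0.021), changed no count by over 1.5 times: 57 newly marked genes were higher and 68 lower, and 137 and 167 of all genes with a region.

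Among the named genes, 5 lost their call with the second pair, 15 with both pairs, 10 without A549/DDP replicate 1 and 4 without A549/DDP replicate 2. Calls were gained by 6 with the second pair, 5 and 6 without A549 replicates 1 and 2, 3 with DESeq2, 3 with at least 10 counts in every library (CD44, SRRM1 and ZC3H13), 2 with no filter and 1 with the block. The second pair gained CAST (0.93, adjusted p = 0.00983), CD44 and SRRM1 among them. Some log2 fold changes, most of them near 0, turned sign. With the second pair they were 0.77 for FBL, 0.98 for SERPINB6, −0.39 for AAAS, 0.68 for ZC3H13, −0.55 for HNRNPA2B1, 10.27 for FANCL, 0.7 for BRCA1, 0.81 for TNFRSF10B, 1.07 for KMT2B, 0.98 for KMT2D and 0.2 for YTHDF1, and FBL, HNRNPA2B1, KMT2B and KMT2D passed edgeR's test there in that direction (adjusted p = 0.0143 to 0.0246). With both pairs they were 0.078 for FBL, 0.18 for SERPINB6, −0.27 for AAAS, −0.41 for HNRNPA2B1, 0.2 for FANCL, 0.047 for KMT2B and 0.1 for KMT2D. CD164 was at 0.0049 with DESeq2, 0.0095 with at least 10 counts in every library, 0.057 with upper-quartile scaling and 0.018 with the block. Upper-quartile scaling gave 0.025 for SERPINB6 and 0.027 for H3-3A, the block gave −0.0075 for SMARCB1, 0.0015 for H3-3A and 0.15 for FANCL, and no filter gave −0.0023 for SMARCB1. With 1 input left out the ranges were −0.076 to 0.13 for SEC23IP, −0.17 to 0.47 for PPP1R11, −0.23 to 0.24 for CD164, −0.27 to 0.23 for SMARCB1, −0.26 to 0.15 for SERPINB6, −0.33 to 0.3 for H3-3A, −0.13 to 0.19 for AAAS, −0.04 to 0.19 for HNRNPA2B1, −0.7 to 1.06 for FANCL and −0.24 to 0.12 for YTHDF1. None of these genes passed the test with all 4 inputs except TNFRSF10B.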
